A study of Mus musculus with 12 samples.

Results

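The genes of the MHC class I presentation pathway described here (10 of the 32285 genes in the count matrix) were followed across the cell types of the mouse hippocampus. They were taken from a fixed list of symbols: the heavy chains H2-K1 and H2-D1, the light chain B2m, the peptide transporter subunits Tap1 and Tap2, the loading factor Tapbp, the immunoproteasome subunits Psmb8, Psmb9 and Psmb10, and the transactivator Nlrc5. All 10 symbols were found in the matrix. The mice were 9-week-old C57/BL6J females, given either the platinum chemotherapy drug cisplatin or its vehicle PBS, with or without sensory stimulation by light flicker and sound at 40 Hz for 1 h a day over 21 days. The labels used here give no dose of cisplatin. Hippocampi were collected on day 22. The 4 groups, each of 3 libraries, are Cisplatin nonstim and Cisplatin stim for the drug and PBS nonstim and PBS stim for the vehicle. Replicate 1 of each group came from 2 hippocampi of 1 animal and forms a first batch, while replicates 2 and 3 each pooled 4 hippocampi of 2 animals and form a second batch, so a library is not always an animal. The libraries hold RNA of dissociated cells, so no protein or surface class I was measured.

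MHC class I molecules carry short peptides from inside the cell to its surface, where CD8 T cells and natural killer cells read them. Proteasomes cut proteins into peptides, and immunoproteasomes, in which the subunits encoded by Psmb8, Psmb9 and Psmb10 replace the standard catalytic subunits, favour peptide ends that suit class I. The TAP transporter, a pair of Tap1 and Tap2, pumps the peptides into the endoplasmic reticulum, tapasin (Tapbp) bridges it to empty class I molecules, and the heavy chain leaves for the surface with B2m. Interferons raise most of these genes together, and Nlrc5 is a transcriptional activator of class I genes. In the brain, vessel cells and microglia are known to express class I readily, and neurons and oligodendrocytes little at rest.

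The start regions of the members on which the comparisons below turn are printed here to show which regulatory letters they share. Each run covers the bases from -180 to 19 around the RefSeq transcript start, in the GRCm38.p6 build, read 5′ to 3′ on the gene's own strand, with matches to the searched motifs in capitals. H2-K1 is at chr17:34000328-34000527 on the minus strand, H2-D1 at chr17:35262914-35263113 on the plus strand, and B2m at chr2:122147507-122147706 on the plus strand. Psmb8 is at chr17:34198015-34198214 on the plus strand and Psmb9 at chr17:34187311-34187510 on the minus strand.
H2-K1: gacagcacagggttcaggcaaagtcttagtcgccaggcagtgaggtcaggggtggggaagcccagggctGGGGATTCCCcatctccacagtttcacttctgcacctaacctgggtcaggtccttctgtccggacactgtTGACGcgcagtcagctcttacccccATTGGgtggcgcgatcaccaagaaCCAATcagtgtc
H2-D1: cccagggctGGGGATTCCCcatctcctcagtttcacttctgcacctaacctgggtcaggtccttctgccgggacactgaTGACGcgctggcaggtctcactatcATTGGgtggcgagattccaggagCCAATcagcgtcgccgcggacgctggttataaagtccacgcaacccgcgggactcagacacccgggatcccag
B2m: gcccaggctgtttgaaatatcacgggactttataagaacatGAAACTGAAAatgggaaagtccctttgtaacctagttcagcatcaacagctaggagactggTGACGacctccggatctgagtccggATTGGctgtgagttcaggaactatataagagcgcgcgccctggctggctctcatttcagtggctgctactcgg
Psmb8: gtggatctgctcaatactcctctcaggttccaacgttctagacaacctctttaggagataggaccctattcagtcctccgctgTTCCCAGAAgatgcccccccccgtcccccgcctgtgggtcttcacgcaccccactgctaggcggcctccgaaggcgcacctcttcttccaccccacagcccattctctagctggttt
Psmb9: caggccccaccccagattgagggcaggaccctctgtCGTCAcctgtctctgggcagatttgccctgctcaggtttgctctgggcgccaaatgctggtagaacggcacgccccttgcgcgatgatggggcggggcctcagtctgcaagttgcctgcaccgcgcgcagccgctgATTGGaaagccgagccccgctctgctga

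The motifs were searched on both strands in the windows from 250 bases before to 50 after the start, over 27025 genes. The kappa B element of class I genes, the first run of capitals in H2-K1 and H2-D1, was found in these 2 members and in 0.126% of all genes (34 genes). In both heavy chains the cyclic AMP response motif TGACG began 70 bases after its first base and ATTGG, the reverse complement of CCAAT, 95 bases after it. Between the shorter stretches printed above, the longest shared run was 40 bases long, and the full windows were not compared in this way. The core of the interferon-stimulated response element was found in B2m alone of the members, as GAAACTGAAA, and in 3.99% of all genes. The gamma-activated site TTCNNNGAA was found in Psmb8 alone of the members, as TTCCCAGAA, and in 9.55% of all genes. CCAAT was present in 6 of the 8 members with a window against 41.1% of all genes, and TGACG in 5 of 8 against 23%. RefSeq windows were used for 8 of the 10 members, all but Tap2 and Nlrc5. Psmb9 and Tap1 are divergent neighbours whose RefSeq starts lie 226 bases apart, so their windows overlap by 275 bases (chr17:34187306-34187580). Their CCAAT matches are the same site in the genome, as are their TGACG matches, and each site was counted for both genes above. A match describes letters only, and the lack of a match does not show that an element is absent.

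By the GENCODE M21 annotation of GRCm38, 7 of the 10 members lie on chromosome 17. Tapbp (chr17:33915899-33929292), H2-K1 (chr17:33996017-34000347), Psmb9 (chr17:34181987-34187764), Tap1 (chr17:34187553-34197225), Psmb8 (chr17:34197721-34201454) and Tap2 (chr17:34203527-34216321) are close together, and H2-D1 (chr17:35262730-35267499) lies further along. B2m is on chromosome 2, and Psmb10 and Nlrc5 are on chromosome 8. H2-K1 and H2-D1 belong to a family of near-copies: 0.228 and 0.267 of their 31-base words also occur in other genes, against at most 0.0462 for the other members. The split of UMIs between these heavy chains and the related H2-Q genes is therefore uncertain.

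The libraries held 611 to 2772 cells and 3964338 to 17656020 UMIs each, 19834 cells in all, in 12 cell types named by the authors. UMIs were summed per library and type, and a level is given as CPM, UMIs per 1000000 UMIs of that sum. Levels are compared across types within a gene and never between genes, since 3′ UMIs are not values per length. The members took 0.0722 to 0.146% of a library's UMIs. The 4 second-batch PBS libraries stood apart, with 1.87 to 3.65% of UMIs in ribosomal RNA-like transcripts (Gm42418, AY036118, Lars2) against 0.34 to 0.78% in the other 8. The deposited type called Pericyte carried endothelial markers at 9953 to 14166 CPM beside its pericyte markers at 6991 to 14047 CPM, against 16422 to 21440 CPM in endothelium, so it is used here by its label only. The type called Immune joined a cluster of microglial marker level with a cluster rich in class II and border macrophage markers. Barcode sequences found in more than 1 library numbered 56, in 112 cells.

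Among the 9 types with enough cells to test, 9 of the members were highest in immune cells, endothelium, microglia and pericytes, and the tenth, Nlrc5, was hardly detected. For H2-D1, whose product presents peptides to CD8 T cells, the order ran from immune cells (1013 ± 311 CPM, SD, n = 12 libraries) through endothelium (871 ± 179), pericytes (634 ± 119, n = 11) and microglia (517 ± 106), down to oligodendrocyte precursors (OPCs, 158 ± 34.1), oligodendrocytes (74.0 ± 48.1), astrocytes (33.4 ± 11.7), neurons (14 ± 8.62) and choroid plexus (9.99 ± 4.64). In this order the SD bars of each type overlapped with those of the next, except between microglia and OPCs and between OPCs and oligodendrocytes. The 3 types with few cells are given apart: fibroblasts (283 ± 36.3 CPM, n = 3 libraries, all of cisplatin mice), ependymal cells (62.3 ± 19.4, n = 9) and progenitors (36.7 ± 15.9, n = 6). H2-K1, the other classical heavy chain, had the same leading types: 703 ± 251 CPM in immune cells, 593 ± 139 in endothelium, 487 ± 96.0 in microglia and 443 ± 82.5 in pericytes. All neighbours among these 4 overlapped. Unlike H2-D1, it had a higher mean in astrocytes (111 ± 18.6 CPM) than in OPCs (79.2 ± 22.9), though their SD bars overlapped, and than in oligodendrocytes (30.8 ± 14.8), choroid plexus (28 ± 17.2) and neurons (9.18 ± 5.32). Fibroblasts (165 ± 22), ependymal cells (121 ± 48.6) and progenitors (13.2 ± 14.8) rest on 3, 9 and 6 libraries. These orders are descriptions, because the types come from clusters of the same counts.

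B2m, the light chain that every class I heavy chain needs, was led by immune cells (1862 ± 470.1 CPM) and microglia (1525 ± 206), above endothelium (827 ± 266) and pericytes (688 ± 206). OPCs (138 ± 23.1), astrocytes (98.9 ± 26.8), oligodendrocytes (57.0 ± 35.4), choroid plexus (45.5 ± 26.9) and neurons (27.5 ± 9.18) followed. Fibroblasts stood at 283 ± 47.1 CPM, ependymal cells at 35.9 ± 21.3 and progenitors at 20.7 ± 31.3. Neighbours from OPCs down overlapped in their SD bars, while microglia and endothelium did not. With every cell thinned to 2000 UMIs, 93.5% of microglia, 74.6% of endothelial cells, 7.87% of oligodendrocytes and 3.74% of neurons had a B2m UMI; unthinned, the shares were 93%, 86.1%, 18.4% and 9.4%. The thinned share for H2-D1 was 76.6% in endothelium, 54.2% in microglia, 27.1% in OPCs and 9.52% in oligodendrocytes. It was 1.93% in neurons and 1.87% in choroid plexus, the lowest types, though in single libraries the neuronal share ran from 0 to 8.82%, on few cells. Free RNA itself was not measured. Thinning left out cells under 2000 UMIs and kept 3814 of 4530 microglia, 1134 of 1434 endothelial cells, 4231 of 4677 oligodendrocytes and 776 of 1074 neurons.

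Among the tested types, the peptide supply genes had their highest means in the same 4. Tap1 lay between 27.3 and 33.8 CPM in immune cells, microglia, pericytes and endothelium, and at 7.25 CPM or below in OPCs, astrocytes, choroid plexus, neurons and oligodendrocytes (0.385 CPM). Tap2 was highest in pericytes (80.6 ± 15.5 CPM) and endothelium (77.2 ± 13.7), whose SD bars overlapped, and lowest in oligodendrocytes (2.45 ± 1.55). Tapbp reached 155 CPM in immune cells, 153 in endothelium, 139 in microglia and 132 in pericytes, against 9.72 in neurons. The few fibroblasts had the highest means of Tapbp (270.2 ± 23.1 CPM) and Tap1 (34.8 ± 19.7 CPM) of any type, while their Tap2 (31.6 ± 14.2 CPM) was below that of the 4 leading types. In ependymal cells Tap1, Tap2 and Tapbp measured 7.45, 32.5 and 48.4 CPM, and in progenitors 1.16, 0.717 and 3.05 CPM.

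Psmb8 stood at 248 ± 58.2 CPM in immune cells, 169 ± 15.5 in microglia, 129 ± 35.6 in endothelium and 93.3 ± 27.9 in pericytes, and at 0.933 CPM in neurons. Psmb9 followed the same split, with 94.7, 74.2, 59.2 and 52.9 CPM in immune cells, endothelium, microglia and pericytes and 0.208 CPM in neurons. Psmb10 spanned a narrower range over the tested types, from 129 ± 32.3 CPM in endothelium to 30 ± 10.5 in neurons and 12.9 in oligodendrocytes. Fibroblasts, ependymal cells and progenitors had Psmb8 at 7.22, 4.81 and 0.669 CPM, Psmb9 at 33.3, 6.7 and 0 CPM, and Psmb10 at 39.7, 10.4 and 10.7 CPM. Nlrc5 was near the limit of detection in every type, with its highest mean in immune cells (8.67 ± 7.09 CPM). No UMI of it was found in 1074 neurons, which allows a share of cells with a UMI of up to 0.279%, or in 894 OPCs, which allows 0.336%; these limits cover counting error only.

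**Figure D1:**
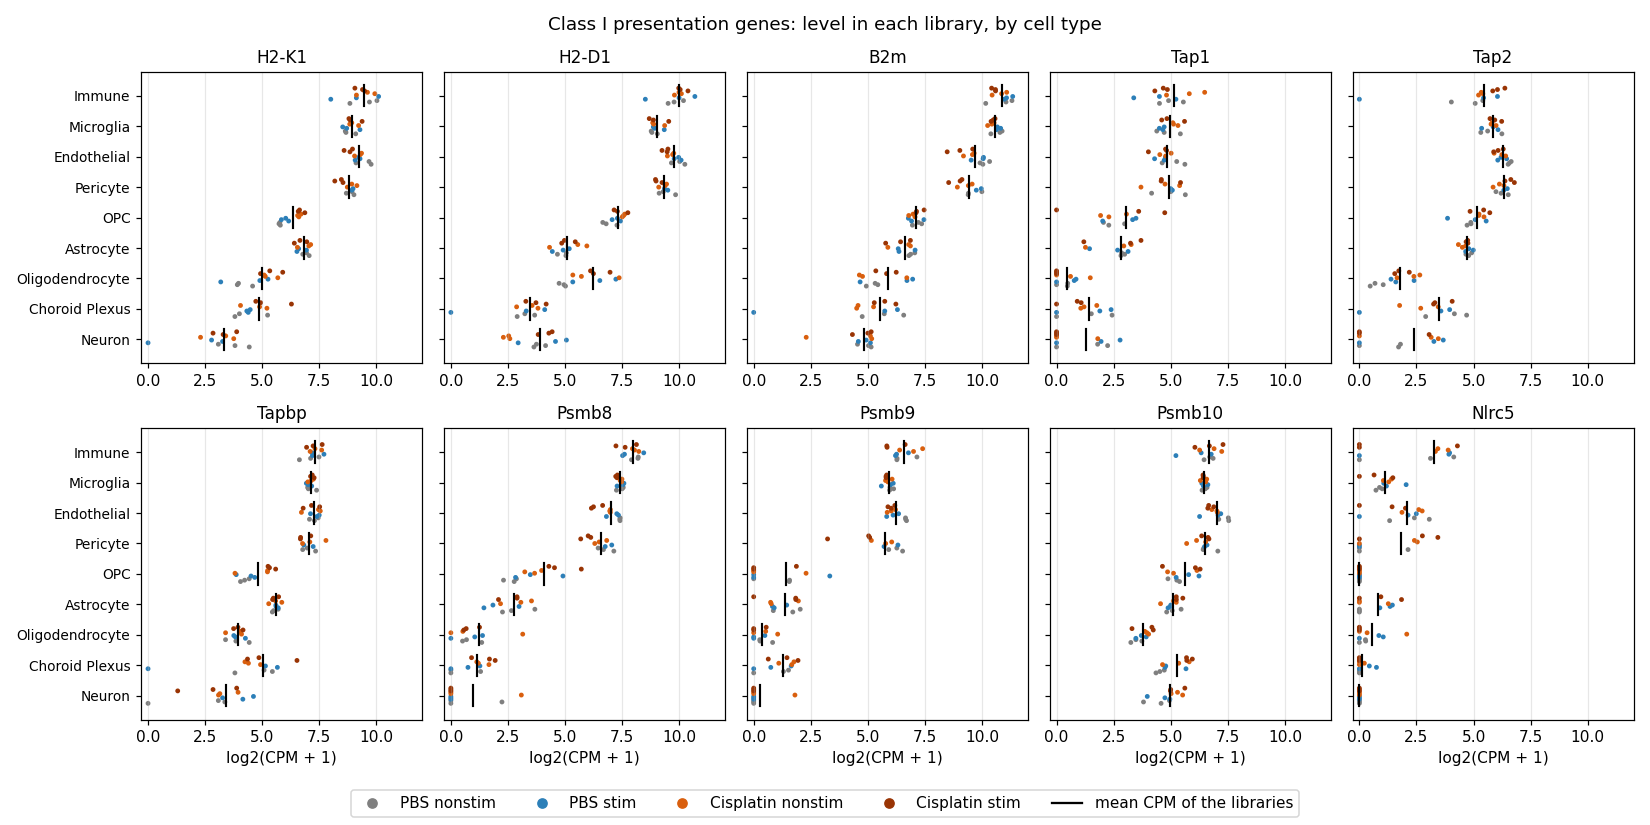
Level of each member in each tested cell type, with CPM on a log scale and libraries as the unit of replication. Each point is a library, coloured by its group, and the line is the mean over libraries. Fibroblasts, ependymal cells and progenitors are not shown. Among the tested types, immune cells, endothelium, microglia and pericytes have the highest levels, H2-D1 for example at 517 CPM or above, and neurons and choroid plexus the lowest H2-D1 levels, at 14 and 9.99 CPM.

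The immune type was not uniform. Its cluster 15 (240 cells), with class II markers at a median of 5138 CPM and border macrophage markers at 6248 CPM, had H2-D1 at 1276 ± 298 CPM, H2-K1 at 939 ± 295 CPM and Nlrc5 at 14.6 ± 8.66 CPM. Its cluster 14 (309 cells), with microglial markers at 24548 to 36555 CPM as in microglia (26710 to 30529), had H2-D1 at 573 ± 241 CPM, H2-K1 at 348 ± 158 CPM and Nlrc5 at 2.25 CPM. B2m was alike in both, at 1948 and 1938 CPM. Clusters were built from the same counts, so these are descriptions with no test.

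Cisplatin without stimulation was compared with PBS without stimulation, the comparison that asks what the drug alone left behind. Of 61 combinations of member and type with enough counts (9 types; Nlrc5 entered none), 6 passed the edgeR quasi-likelihood test at an adjusted p under 0.05, 4 higher and 2 lower, beside 1.64% of all gene and type tests (0.937% higher and 0.707% lower). The direction differed by type: B2m and Psmb9 fell in endothelium, while H2-K1, H2-D1 and Tap2 rose in oligodendrocytes and H2-K1 rose in OPCs. At an unadjusted p under 0.05 there were 20 of the 61, beside 10066 of 69488 gene and type tests (edgeR). A difference here is in a gene's share of the UMIs of a type, not in the number of its cells.

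In endothelium, the cells that line the brain's vessels, B2m measured 1047, 959 and 1283 CPM in PBS nonstim 1, 2 and 3 and 580.1, 762 and 802 CPM in Cisplatin nonstim 1, 2 and 3. Every PBS library was above every cisplatin library. The log2 fold change was -0.66 (SE 0.15, adjusted p = 0.0326 by edgeR's quasi-likelihood test). The catalytic subunit Psmb9 measured 102, 99.6 and 99.1 CPM in PBS nonstim and 56.4, 63.9 and 72.8 CPM in Cisplatin nonstim. The groups did not overlap here either, and the PBS libraries lay close together. The log2 fold change was -0.67 (SE 0.15, adjusted p = 0.0210).

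All 9 members tested in endothelium had a log2 fold change below 0, from -0.67 to -0.03, with a median of -0.41 against 0.00 for all genes tested. Only B2m and Psmb9 passed the test, beside 0.945% of genes called in this type, 0.393% as lower. Psmb8 measured 168, 167 and 169 CPM in PBS nonstim and 125, 123 and 125 CPM in Cisplatin nonstim, without overlap, at a log2 fold change of -0.46 with an adjusted p of 0.126. H2-D1 measured 1211, 805 and 1034 CPM against 712, 835 and 865 CPM, where PBS nonstim 2 lay among the cisplatin libraries. H2-K1, at 869, 549 and 816 CPM against 525, 625 and 649 CPM, overlapped in the same library. In 5 of the 9 (B2m, Tap2, Psmb8, Psmb9, Psmb10) every cisplatin library was below every PBS library, as in 5.92% of all genes tested. The sign was not the same under every setting: Tapbp was above 0 in the second batch alone, and Tap2 with the ribosomal RNA-like share as a covariate.

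**Figure D2:**
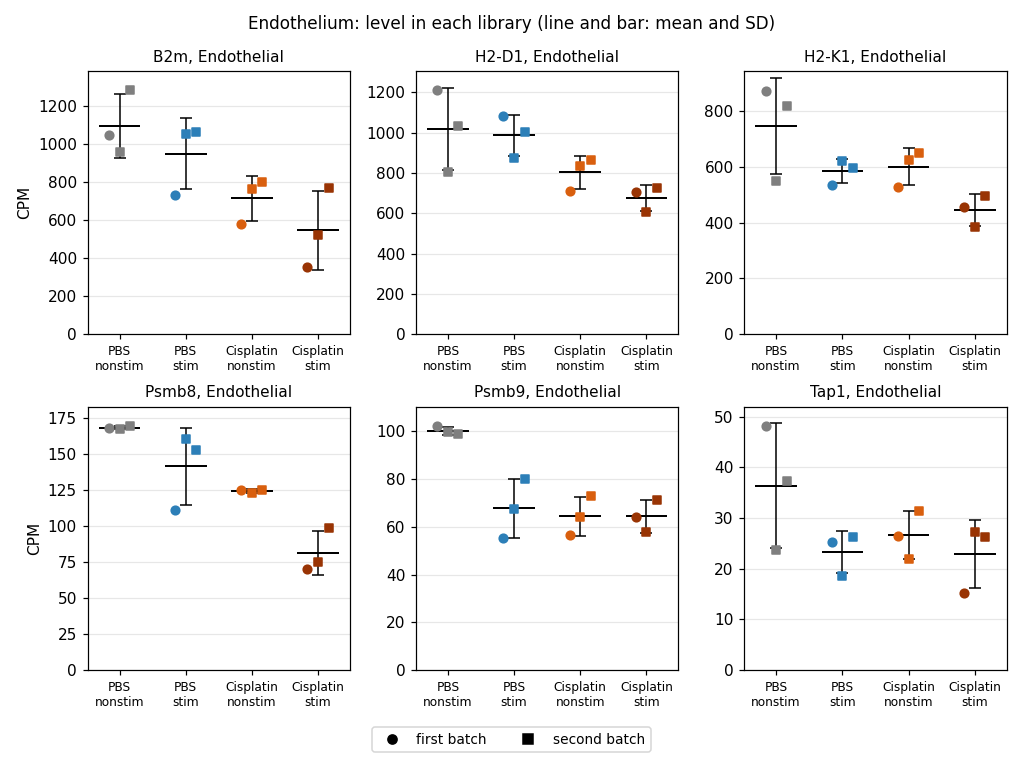
Level in CPM of 6 members in endothelium, with each point a library, circles for the first batch and squares for the second, and the line and bar the group's mean and SD. B2m, Psmb8 and Psmb9 of Cisplatin nonstim sit below all 3 PBS nonstim libraries, while H2-D1 and H2-K1 overlap through PBS nonstim 2.

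The endothelial calls rested on few libraries. Without PBS nonstim 1 or 3, or any of Cisplatin nonstim 1, 2 and 3, B2m had an adjusted p of 0.0516 to 0.201 at a log2 fold change of -0.82 to -0.53 over all leave-outs, and Psmb9 lost its call without any 1 of the 6 libraries compared (0.0636 to 0.149). Within the first batch the log2 ratios were -0.85 for B2m and -0.86 for Psmb9, and within the second batch -0.59 (adjusted p = 0.0371, edgeR) and -0.61 (adjusted p = 0.0534, edgeR). Ribosomal RNA-like transcripts also moved with the drug, from 3.08 and 4.44% of endothelial UMIs in second-batch PBS nonstim to 0.768 and 0.853% in second-batch Cisplatin nonstim, though in the first batch they were 0.787 and 0.425%. Their part in the result was not tested; with their share as a covariate B2m had a log2 fold change of -0.56 and no longer passed (adjusted p = 1.00, edgeR). Microglial markers in endothelium summed to 89.1 to 163 CPM in PBS nonstim and 83.9 to 191 CPM in Cisplatin nonstim. T and NK cell markers there summed to at most 0.882 CPM. Markers of the remaining cell types in endothelium are not given here.

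In oligodendrocytes, the myelinating cells, H2-K1 measured 22.9, 14 and 14.6 CPM in PBS nonstim and 50.3, 34.1 and 32.9 CPM in Cisplatin nonstim. All 3 cisplatin libraries were above all 3 PBS libraries. The log2 fold change was 1.29 (SE 0.29, adjusted p = 0.0117, edgeR). H2-D1 measured 31.4, 29.9 and 25.7 CPM in PBS nonstim and 164, 51.5 and 39.5 CPM in Cisplatin nonstim. Again there was no overlap, and Cisplatin nonstim 1 stood far above the other 2. The log2 fold change was 1.55 (SE 0.42, adjusted p = 0.0338, edgeR).

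Tap2, a TAP transporter subunit, measured 0.388, 1.06 and 0.607 CPM in PBS nonstim and 2.14, 4.23 and 5.26 CPM in Cisplatin nonstim. These levels rest on 1, 5 and 3 UMIs against 6, 16 and 12. The groups did not overlap, and the log2 fold change was 2.42 (SE 0.51, adjusted p = 0.00837, edgeR). B2m moved differently: 29.5, 42.2 and 38.8 CPM against 103, 26.2 and 23.7 CPM, so that only Cisplatin nonstim 1 was above the PBS libraries (log2 fold change 0.45, adjusted p = 0.62, edgeR). Its batches had opposite directions, with a log2 ratio of 1.81 in the first and -0.68 (adjusted p = 0.0216, edgeR) in the second, and without Cisplatin nonstim 1 it was -0.73. Psmb10 had a log2 fold change of 0.50 (adjusted p = 0.198).

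So 3 of 6 members tested in oligodendrocytes were called higher, beside 3.33% of all genes tested there (6.25% in either direction), and 4 of 6 did not overlap between groups against 6.15% of all genes. The median over the 6 was 0.90 against 0.00 for all genes. H2-K1 lost its call without PBS nonstim 2 or 3 (adjusted p 0.066 and 0.0865) and Tap2 without PBS nonstim 3, Cisplatin nonstim 2 or 3 (0.0857, 0.0569 and 0.0505). H2-D1 lost it without PBS nonstim 1, 2 or 3 or Cisplatin nonstim 1 (adjusted p 0.0714 to 0.242), and without the last the log2 fold change was 0.57. Within the first batch the log2 ratios were 1.14 for H2-K1, 2.39 for H2-D1 and 2.47 for Tap2, and within the second batch alone 1.24 (adjusted p = 0.000111), 0.75 (adjusted p = 0.0305) and 2.44 (adjusted p = 0.00633), all by edgeR.

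Cisplatin nonstim 1 was also the oligodendrocyte library with the highest median share of mitochondrially encoded UMIs, 31.6%, against 13.6 to 23.3% in the other first-batch libraries and 4.16 to 6.91% in the second batch. Microglial markers summed to 194 CPM in it and to 51.1 to 129 CPM in the other 11 libraries, against 26710 to 30529 CPM in microglia. The part of these shares in the H2-D1 result was not tested. Ribosomal RNA-like transcripts took 0.394, 2.06 and 3.07% of oligodendrocyte UMIs in PBS nonstim and 0.284, 0.338 and 0.318% in Cisplatin nonstim, and with their share as a covariate no member was called in any type (oligodendrocyte H2-D1 2.67, adjusted p = 0.0709, edgeR). With oligodendrocytes of cluster 11 left out, a setting chosen after seeing the data, H2-D1 had a log2 fold change of 1.20 (adjusted p = 0.0597, edgeR). Thinned to 2000 UMIs per cell, 6.33, 5.60 and 3.58% of oligodendrocytes had an H2-D1 UMI in PBS nonstim and 14.9, 7.71 and 8.02% in Cisplatin nonstim, beside 1.49 to 2.99% and 0% of neurons in the same groups. The cisplatin shares were all above the PBS shares. Unthinned, they were 14.4, 14 and 12.3% against 26.6, 25 and 25.7%. Oligodendrocyte markers themselves summed to 49346 to 56229 CPM in PBS nonstim and 41669 to 48016 CPM in Cisplatin nonstim.

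**Figure D3:**
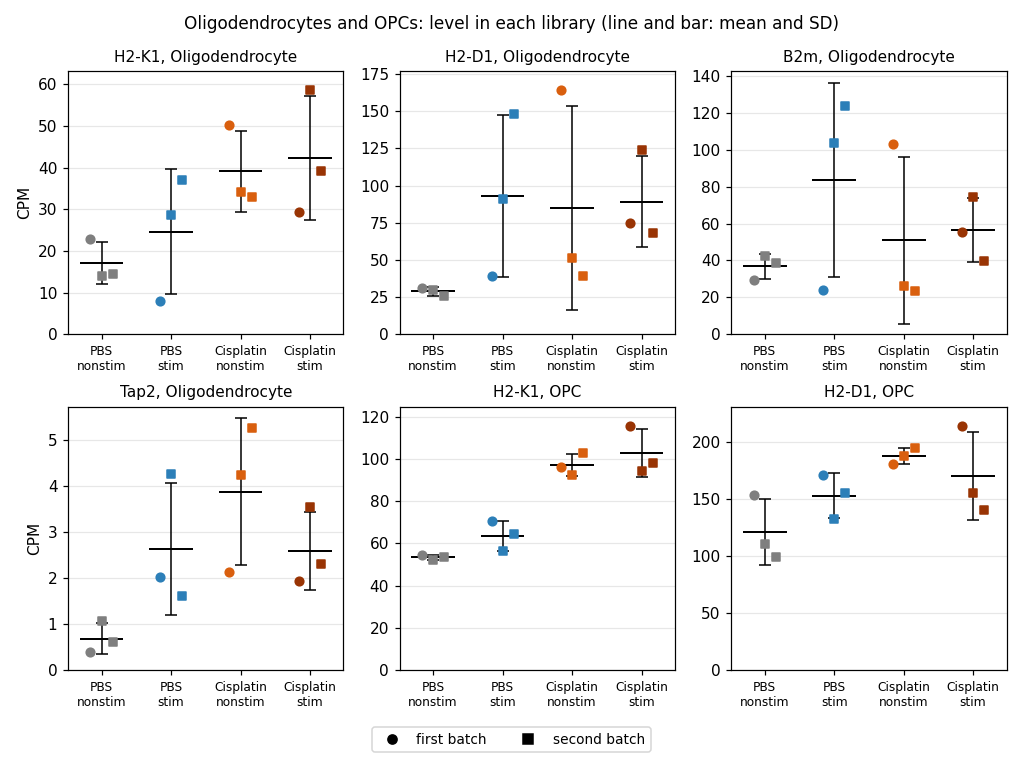
Level in CPM by library of members in oligodendrocytes, and of H2-K1 and H2-D1 in OPCs. Circles mark the first batch and squares the second, and the line and bar are the group's mean and SD. In oligodendrocytes H2-K1 and H2-D1 lie higher in Cisplatin nonstim than in PBS nonstim in every library, with Cisplatin nonstim 1 the highest H2-D1 value at 164 CPM.

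OPCs, the proliferating precursors of oligodendrocytes, had H2-K1 at 54.4, 52.2 and 53.6 CPM in PBS nonstim and 96.1, 92.6 and 103 CPM in Cisplatin nonstim. The groups were tight and did not overlap, and the log2 fold change was 0.87 (SE 0.20, adjusted p = 0.0384, edgeR), beside 0.221% of OPC genes called higher and 0.299% in either direction. H2-D1 measured 153, 110.3 and 99.4 CPM against 181, 188 and 195 CPM, without overlap, at a log2 fold change of 0.65 that missed the threshold (adjusted p = 0.103) and passed it without Cisplatin nonstim 1 (0.84, adjusted p = 0.0356) and in the second batch alone (0.87, adjusted p = 0.0191), all by edgeR. Of 6 members tested in OPCs 3 did not overlap and were higher with cisplatin, as in 5.5% of all genes. The H2-K1 call was lost without PBS nonstim 1, 2 or 3, PBS stim 2, or Cisplatin nonstim 1, 2 or 3 (adjusted p 0.0515 to 0.231). Within the first batch its log2 ratio was 0.82, and within the second 0.89 (adjusted p = 0.0753, edgeR). Ribosomal RNA-like transcripts in OPCs went from 0.385, 2.29 and 3.25% to 0.278, 0.43 and 0.374%. Microglial markers in OPCs summed to 50.5 to 146 CPM in PBS nonstim and 84.5 to 190 CPM in Cisplatin nonstim.

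No member passed the test in the other 6 types, where the all-gene share called was 3.59% in microglia, 0.364% in astrocytes, 0.243% in pericytes, 0.0418% in immune cells, 0.0152% in neurons and 0 in choroid plexus. Microglial B2m measured 1333, 1755 and 1875 CPM in PBS nonstim and 1208, 1374 and 1468 CPM in Cisplatin nonstim, with overlap (log2 fold change -0.29, adjusted p = 0.142, edgeR). It was called without PBS nonstim 1 (-0.41, adjusted p = 0.0419, edgeR) and in the second batch alone (-0.39, adjusted p = 0.036, edgeR). The second batch alone also called microglial Tap1 (0.52, adjusted p = 0.0417, edgeR) and astrocyte H2-D1 (0.93, adjusted p = 0.0166, edgeR), both higher. Averaged over stimulation, it called astrocyte H2-D1 again (0.54, adjusted p = 0.0482, edgeR). In choroid plexus the members ranged from -1.04 for Tap2 to 0.93 for Psmb10, none called. With at least 30 cells of this type per library 4 of them were called: Psmb10 (0.96), B2m (-1.02), Tapbp (-0.93) and Tap2 (-1.07). The second batch alone called Psmb10 (1.05) and B2m (-0.86) there. Psmb10 was also called without PBS nonstim 1, PBS stim 1 or Cisplatin nonstim 1 (0.96 to 1.12, adjusted p 0.0328 to 0.0492). Choroid plexus joins clusters 3 and 4, which had Psmb10 at 47.9 and 27.4 CPM and B2m at 24.9 and 70.8. Tapbp stood at 5.84 and 59.7 CPM in them, Tap2 at 2.30 and 18.7, H2-K1 at 9.85 and 46.0, and H2-D1 at 4.27 and 17.7. Cluster 4 had at least 10 cells in 10 libraries. The part of the cluster mix in these values was not tested. A p above the threshold in these types does not show that the levels were the same.

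**Figure D4:**
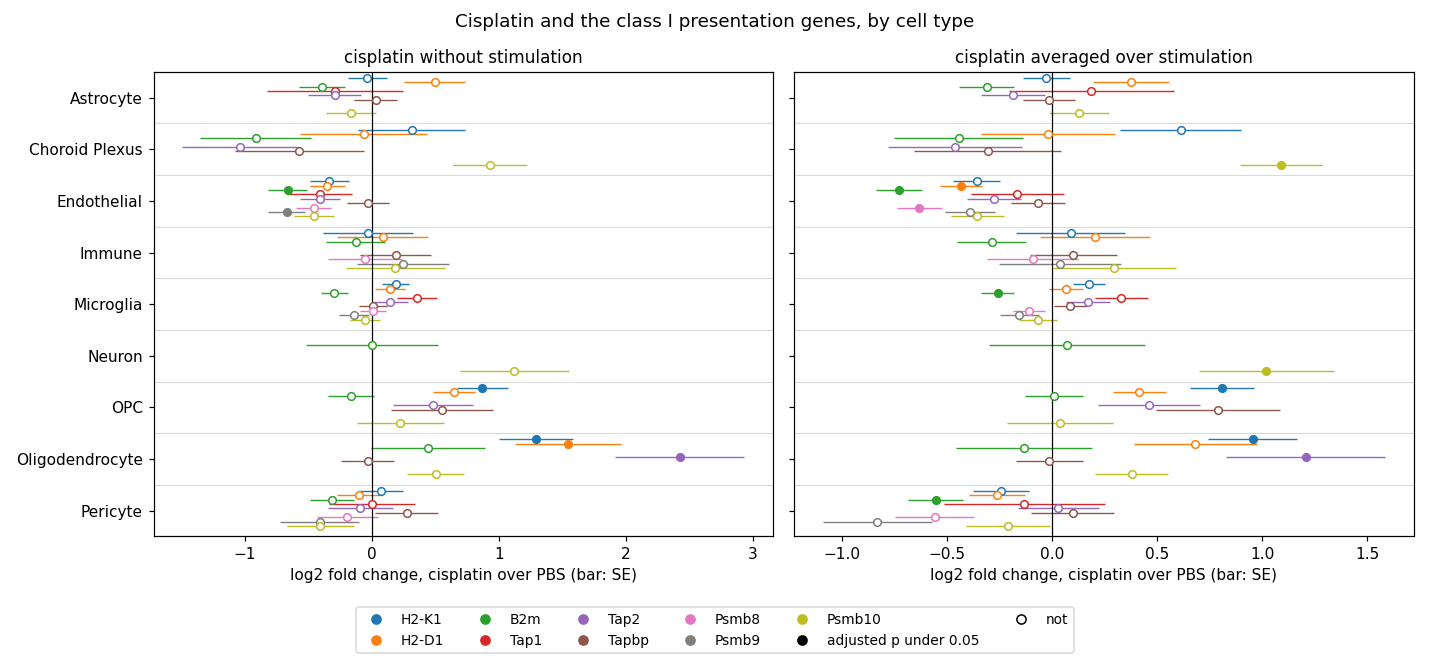
Log2 fold change of cisplatin over PBS for each member and tested type, from the edgeR fit, with called combinations marked. The left panel compares Cisplatin nonstim with PBS nonstim, and the right panel is averaged over stimulation. In the left panel endothelium lies below 0 for all 9 members tested, from -0.67 to -0.03, and oligodendrocytes above 0 for 5 of 6, up to 2.42 for Tap2.

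Because a call in 1 type and none in another is no test of a difference, the cisplatin effect in endothelium was compared directly with that in each of the other 8 types, with the library as a block. Of 72 combinations, 6 were called, beside 0.545% of all genes. In 20 of the 72 (7 of them in neurons) the gene had too few counts in the other type to be tested there and entered through endothelium, and none of the 6 called is among them. Against oligodendrocytes the effect in endothelium was lower by a log2 difference of -1.59 for H2-K1 (SE 0.24, adjusted p = 1.39e-05, edgeR), -1.76 for H2-D1 (SE 0.31, adjusted p = 0.000388, edgeR) and -2.86 for Tap2 (SE 0.52, adjusted p = 0.000471, edgeR), beside 0.788% of genes called. Against OPCs it was lower by -1.16 for H2-K1 (SE 0.24, adjusted p = 0.00198, edgeR) and -0.998 for H2-D1 (SE 0.21, adjusted p = 0.00161, edgeR), beside 0.314% of genes. Against microglia H2-K1 differed by -0.51 (SE 0.14, adjusted p = 0.0490, edgeR), beside 1.3% of genes. The log2 fold changes of both heavy chains were below 0 in endothelium and above 0 in oligodendrocytes and OPCs, although neither endothelial change passed the test on its own.

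The heavy chain difference against oligodendrocytes held for H2-K1 in every leave-out, while that of H2-D1 without Cisplatin nonstim 1 was -0.72 (adjusted p = 0.0505, edgeR). Against OPCs the H2-K1 call was lost without PBS nonstim 1 (adjusted p = 0.146), PBS nonstim 3 (0.0526) or Cisplatin nonstim 1 (0.0768), and the H2-D1 call without PBS nonstim 3 (0.0681). The microglial H2-K1 difference was lost in 14 of 21 settings, and DESeq2 called 1 difference in place of 6. For B2m the difference between endothelium and oligodendrocytes was -0.93 and did not pass (adjusted p = 0.205, edgeR); it was 0.12 without Cisplatin nonstim 1 and was called without PBS nonstim 2 (-1.22, adjusted p = 0.0177, edgeR). The 8 comparisons share the same endothelial libraries.

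**Figure D5:**
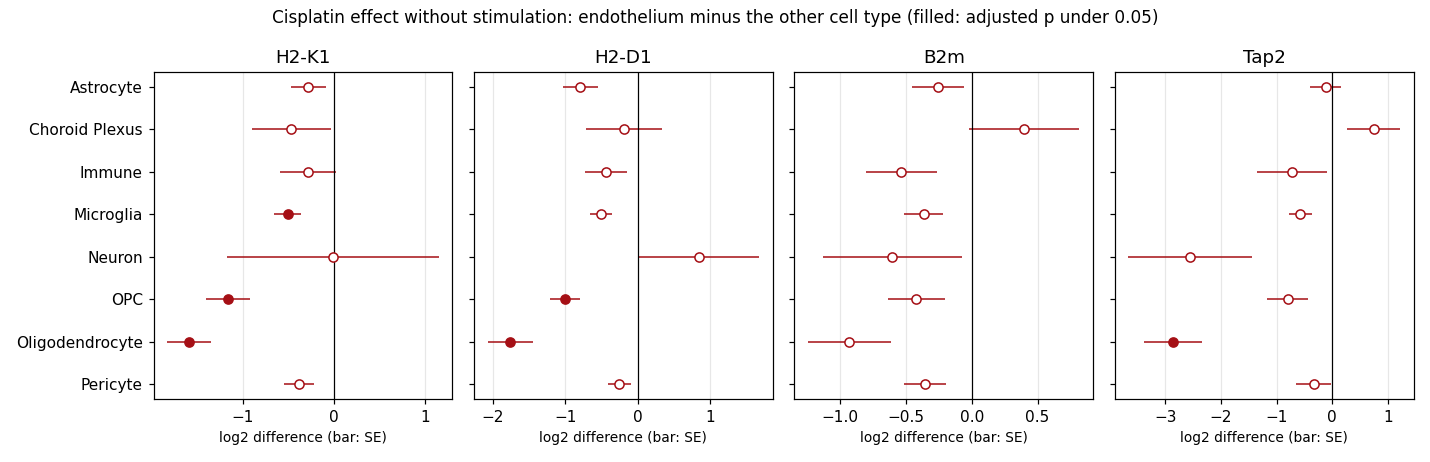
Difference in the log2 effect of cisplatin without stimulation between endothelium and each other type, by member. H2-K1 and H2-D1 are below 0 against oligodendrocytes (-1.59 and -1.76) and OPCs (-1.16 and -0.998).

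Averaged over stimulation, the 6 cisplatin libraries were set against the 6 PBS libraries, which include those used above, so that this comparison is not independent of the former. Libraries of the same replicate number deviated together within each drug arm, and p-values that take all 12 as independent may be too small. Of 61 combinations 10 passed, 5 higher and 5 lower, beside 9.72% of all gene and type tests (5.12% higher and 4.6% lower). An unadjusted p under 0.05 was reached by 25 of the 61, beside 16838 of 69488 gene and type tests (edgeR). In endothelium, beside 5.66% of genes, B2m fell by 0.73 on the log2 scale (SE 0.11, adjusted p = 0.000174), Psmb8 by 0.63 (SE 0.11, adjusted p = 0.000647) and H2-D1 by 0.43 (SE 0.10, adjusted p = 0.00943), all by edgeR. These 3 calls held without any single library, while with the ribosomal RNA-like share as a covariate 0 of the 61 were called in this comparison. In Cisplatin stim, endothelial B2m measured 353, 519.8 and 768 CPM and Psmb8 70.1, 74.7 and 99 CPM, and in PBS stim 732, 1053 and 1066 CPM and 111, 161 and 153 CPM.

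OPC H2-K1 was higher in all 6 cisplatin libraries than in all 6 PBS libraries, which held for 0.625% of OPC genes. It measured 70.4, 56.2 and 64.2 CPM in PBS stim and 116, 94.3 and 98.1 CPM in Cisplatin stim, and rose by a log2 fold change of 0.81 (SE 0.15, adjusted p = 0.00148, edgeR), beside 2.26% of OPC genes called. The call held without any single library. Oligodendrocyte H2-K1 rose by 0.95 (SE 0.21, adjusted p = 0.00277, edgeR), also without dependence on 1 library, and Tap2 by 1.21 (SE 0.38, adjusted p = 0.0254, edgeR), beside 23.3% of oligodendrocyte genes called. The Tap2 call was lost without PBS nonstim 3, PBS stim 3, Cisplatin nonstim 2, Cisplatin nonstim 3 or Cisplatin stim 2 (adjusted p 0.0519 to 0.082). Oligodendrocyte H2-D1 and endothelial Psmb9, both called without stimulation, did not pass when averaged over stimulation.

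B2m was lower under cisplatin in microglia as well, by 0.26 on the log2 scale (log2 fold change -0.26, SE 0.08, adjusted p = 0.0277, edgeR), beside 14.8% of microglial genes called. It was lost without PBS nonstim 2 or 3, PBS stim 1 or 2, Cisplatin nonstim 2 or Cisplatin stim 2 (0.0692 to 0.107). In the pericyte-labelled cells B2m had a log2 fold change of -0.55 (SE 0.13, adjusted p = 0.0279, edgeR), beside 1.47% of genes, and lost the call without PBS nonstim 3, PBS stim 3, Cisplatin nonstim 2, Cisplatin stim 2 or Cisplatin stim 3 (0.0691 to 0.182). That type carries endothelial markers, and 1 of its PBS stim libraries had too few cells to enter. Psmb10 rose in choroid plexus by 1.09 (SE 0.20, adjusted p = 0.00861, edgeR), beside 14.4% of genes, though the first batch gave a log2 ratio of 0.11. The call was lost without PBS stim 2, PBS stim 3, Cisplatin nonstim 2 or Cisplatin stim 2 (0.0507 to 0.0713). The clusters of this type differ in Psmb10, as given above, and the part of their mix was not tested. In neurons Psmb10 rose by 1.02 (SE 0.32, adjusted p = 0.0471, edgeR), beside 8.38% of genes, on 5 to 21 UMIs a library; 9 of 12 leave-outs ended the call (0.0586 to 0.115), as did the replicate block (adjusted p = 0.0606).

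No member was called for stimulation in cisplatin mice by edgeR (0 of 61, and 0 by DESeq2 and by limma-voom), beside 0.196% of all gene and type tests. An unadjusted p under 0.05 was reached by 6 of the 61, beside 4628 of 69488 gene and type tests (edgeR). The smallest p belonged to endothelial Psmb8, at 125, 123 and 125 CPM without and 70.1, 74.7 and 99 CPM with stimulation. The groups did not overlap, at a log2 fold change of -0.57 (SE 0.16, adjusted p = 0.21, edgeR). Next came H2-K1 in the pericyte-labelled cells at -0.56 (SE 0.18, adjusted p = 0.548, edgeR) and H2-K1 in endothelium at -0.40 (SE 0.16, adjusted p = 0.608, edgeR), the latter from 525, 625 and 649 CPM to 457, 382 and 494 CPM.

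Stimulation in PBS mice also gave no call (0 of 61, and 0 by DESeq2 and by limma-voom), beside 0 among all genes. An unadjusted p under 0.05 was reached by 8 of the 61, beside 1992 of 69488 gene and type tests (edgeR). Oligodendrocyte H2-D1 measured 31.4, 29.9 and 25.7 CPM in PBS nonstim and 39.4, 90.8 and 148 CPM in PBS stim. All stimulated libraries were above the others, and they were spread widely. The log2 fold change was 1.81 (SE 0.42, adjusted p = 1.00, edgeR). In the second batch alone it was 2.09 (adjusted p = 1.54e-05, edgeR), with B2m at 1.48 (adjusted p = 2.72e-05, edgeR) and H2-K1 at 1.19 (adjusted p = 0.00769, edgeR), while the first-batch log2 ratios were 0.33, -0.28 and -1.50. Without PBS stim 1 the H2-D1 value was 2.24 (adjusted p = 0.0157, edgeR) and without Cisplatin nonstim 1 it was 1.75 (adjusted p = 0.0138, edgeR): leaving out either library turned it into a call. Oligodendrocyte Tap2 at 1.86 (SE 0.58) and endothelial Psmb9 at -0.53 (SE 0.17) had the next smallest p.

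The interaction, whether stimulation acted differently in cisplatin and PBS mice, gave no call either (0 of 61, 0 by DESeq2 and by limma-voom), beside 0.0245% of all tests. An unadjusted p under 0.05 was reached by 4 of the 61, beside 3394 of 69488 gene and type tests (edgeR). The smallest p belonged to oligodendrocyte Tap2 at -2.43 (SE 0.75, adjusted p = 0.339, edgeR), oligodendrocyte H2-D1 at -1.73 (SE 0.58, adjusted p = 0.386, edgeR) and H2-K1 in the pericyte-labelled cells at -0.64 (SE 0.27, adjusted p = 0.916, edgeR).

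Other genes of the pathway were read from lists, counted over the types in which each gene was tested. Without stimulation, cisplatin changed none of 27 tests of other class I heavy chains, none of 36 of trimming enzymes and loading chaperones, and none of 44 of proteasome activator and standard catalytic subunits. Of 17 tests of other B2m partners 1 was higher: Fcgrt, the heavy chain of the neonatal Fc receptor, in microglia (log2 fold change 0.65, adjusted p = 0.00437, edgeR). In microglia 3.59% of all genes were called in either direction. Of 87 tests of interferon-stimulated genes 3 were higher and 2 lower, beside 0.937% higher and 0.707% lower of all gene and type tests. Endothelial Ifi27l2a fell from a mean of 45.1 to 8.44 CPM (log2 fold change -2.35, adjusted p = 0.0064, edgeR) and Gbp3, an interferon-induced GTPase, from 152 to 83.5 CPM (-0.87, adjusted p = 0.0162, edgeR), while Ifitm3, an antiviral membrane protein, rose in microglia (1.46, adjusted p = 0.0153, edgeR). The other higher calls, named here after their values were seen, were Isg15 in microglia (0.69, adjusted p = 0.0429, edgeR) and Usp18, a negative regulator of type I interferon signalling, in oligodendrocytes (2.82, adjusted p = 0.0295, edgeR).

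Of 113 tests of interferon signalling genes 3 were lower and none higher, all in oligodendrocytes, where 2.92% of all genes were called lower. They were the receptor chains Ifnar1 (log2 fold change -0.72, adjusted p = 0.0238, edgeR) and Ifnar2 (-0.54, adjusted p = 0.0332, edgeR) and the kinase Jak1 (-0.62, adjusted p = 0.0266, edgeR). Of 5 tests of class I receptors 1 was lower, Klrd1 (CD94) in microglia (-2.08, adjusted p = 0.00379, edgeR), beside 3.59% of microglial genes called in either direction.

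Averaged over stimulation, the counts of each list stand beside 5.12% higher and 4.6% lower among all gene and type tests. Of the heavy chain tests 3 of 27 were lower: H2-T24 in endothelium (log2 fold change -1.83, adjusted p = 0.00553, edgeR), H2-T24 in microglia (-0.96, adjusted p = 0.00786, edgeR) and H2-Q7 in endothelium (-1.55, adjusted p = 0.0468, edgeR). Of the B2m partners 3 of 17 were higher, with Hfe, an iron regulator, in oligodendrocytes (3.1, adjusted p = 0.000447, edgeR) and Fcgrt and Cd1d1 in microglia (0.44 and 0.66). Of the chaperones 6 of 36 were lower, among them the peptide trimming enzyme Erap1 in endothelium (-0.88, adjusted p = 0.00772, edgeR) and the lectin chaperone Canx in oligodendrocytes and microglia (-0.28 and -0.27). Of the proteasome subunits 5 of 44 were higher and 1 lower. The smallest adjusted p belonged to the standard subunits Psmb5 and Psmb6 in oligodendrocytes (0.31 and 0.23) and the activator subunit Psme2 in choroid plexus (0.64).

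In the same comparison 1 of 113 interferon signalling tests was higher and 11 lower. The smallest adjusted p belonged to Jak1 and Ifnar2 in oligodendrocytes (-0.59 and -0.48) and Jak2 in microglia (-0.51). Of 87 interferon-stimulated gene tests 3 were higher and 9 lower. Of the 9, 6 were in endothelium, where 19 were tested and 5.66% of all genes were called in either direction. Ifi27l2a (-2.75, adjusted p = 0.000164, edgeR), Gbp3 (-0.87, adjusted p = 0.000364, edgeR) and Ifi27 (-0.42, adjusted p = 0.00943, edgeR) had the smallest p there, and Ifi27l2a was higher in choroid plexus (1.01, adjusted p = 0.00972, edgeR). The receptor list had 1 of 5 lower, Klrd1 in microglia. Stimulation in either arm, and the interaction, called no gene of any of these lists.

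Across the 9 tested types, the genes whose mean levels were most like the mean of the 10 members were Ralb (Pearson r = 0.977), Parp14 (0.972), Gbp7 (0.972), Msn (0.969) and Srgn (0.966), over 9 points that share library depth. Over the 12 endothelial libraries the most like were Fam168b (0.887), Ifitm3 (0.884), S100a13 (0.877), Slfn2 (0.871) and Gbp3 (0.870). In oligodendrocytes, where H2-D1 was chosen after its values were seen, its level over 12 libraries went with that of B2m (0.831) and H2-K1 (0.751), less with Tap2 (0.398) and not with Tapbp (-0.01). These correlations are descriptions.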

How the data were processed

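The authors deposited a matrix of unnormalized UMI counts, and a library, cell type and cluster for each cell. A mean per gene, a score that the authors deposited, was not used. The authors' table marks 0 of 19834 cells as doublets, and no further doublet call was made. Per the labels' protocols, hippocampi were dissociated enzymatically and libraries made with 10x 3′ v3.1 chemistry. The submitters' processing notes list Cell Ranger 5.0.0, Scanpy and mm10.

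Counts were summed per library and type (at least 10 cells) and tested in 9 types with at least 2 libraries per group. edgeR 4.0.16 (R 4.3.3) used TMM, filterByExpr, and 4 groups plus batch over all genes, with Benjamini-Hochberg adjustment within type and comparison (called under 0.05). The type difference used library as a block. Alternatives used DESeq2 1.42.0, limma 3.58.1 (voom) and other settings. The scripts were tested on simulated counts. Deviations correlated by replicate number within each drug arm (0.532, 0.531 and 0.213 with cisplatin, and 0.597, 0.249 and 0.442 with PBS). Across the arms they were 0.417, 0.173 and -0.0284 without stimulation and 0.539, 0.131 and 0.219 with it. The main tests used the batch term and no pairs, and the replicate block was an alternative setting. Members and lists were chosen with earlier results of these data known; log2 fold changes are given for called members, or the 3 smallest p. Sequences are RefSeq's.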

Additional observations from a re-analysis of the deposited data

Results flagged for a closer look

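The effect of cisplatin without stimulation differed between endothelium and another cell type for 6 combinations, by the test of the difference itself (edgeR, library as a block). The log2 difference, endothelium minus the other type, was -1.59 for H2-K1, -1.76 for H2-D1 and -2.86 for Tap2 against oligodendrocytes. It was -1.16 for H2-K1 and -0.998 for H2-D1 against OPCs. It was -0.509 for H2-K1 against microglia, the least stable of the 6.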

How the results depend on the processing

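Levels in the 9 tested types moved by less than 1 SD in all 180 alternative values. Of the single values chosen for this count, 3 changed sign, all uncalled. Values outside this choice were not counted, and endothelial Tapbp and Tap2, given above, and choroid plexus Tapbp, given below, changed sign as well. Oligodendrocyte B2m was -0.68 in the second batch alone, -0.10 without cluster 11 and, with each library left out in turn, between -0.73 (without Cisplatin nonstim 1) and 0.90, its difference from endothelium was 0.13 in the second batch alone and, with each library left out, between -1.3 and 0.12 (without Cisplatin nonstim 1), and choroid plexus Tap2 was 0.13 without the second-batch PBS libraries. Averaged over stimulation, choroid plexus Tapbp, not called, was called lower in the second batch alone (-0.67) and with at least 30 cells (-0.66) and higher without the second-batch PBS libraries (5.73). Cisplatin without stimulation called 6 members. It called 1 with DESeq2 (endothelial B2m, of 48 with an adjusted p), 1 without the batch term, 11 in the second batch alone, 10 with at least 30 cells, 0 with the ribosomal RNA-like share as a covariate, 0 without the second-batch PBS libraries (chosen after seeing the data, as was leaving out cluster 11), and 0 to 7 with a library left out. Averaged over stimulation, 10 were called: 6 without the batch term, 0 with the covariate, 4 without the second-batch PBS libraries and 5 to 13 in leave-outs. Stimulation in cisplatin mice called 0, and 2 in the second batch alone, the oligodendrocyte genes B2m (1.16, adjusted p = 0.0073) and H2-D1 (1.04, adjusted p = 0.027) by edgeR. Stimulation in PBS mice called 0, but 3 without a filter, 3 in the second batch alone, 2 with the compared groups only and 0 to 1 in leave-outs. The interaction called 0, and 2 without a filter. The endothelial difference called 6, 1 with DESeq2 and 3 to 9 in leave-outs. The cause of these changes was not tested. With the replicate block the 5 comparisons within types called 6, 0, 0, 0 and 9, and no call changed except neuronal Psmb10. The median of all genes shifted by over 0.1 only without a filter (0.15) and without the second-batch PBS libraries (0.29).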
